A study of Homo sapiens with 12 samples.

Results

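The kinesin superfamily was followed here through the knockdown of MESH1, the metazoan SpoT homolog encoded by HDDC3, in RCC4 cells. Members were all gene symbols in the count files made of KIF, a number and at most one of the letters A to C, plus KIFC1, KIFC2 and KIFC3, which gave 42 of 23710 symbols. By textbook role, 14 were grouped as mitotic kinesins, 15 as transport kinesins and 13 as other kinesins. RCC4 is an established line of human clear cell renal carcinoma. Cells received 40 pmol of siRNA and were collected after 72 hours for stranded mRNA sequencing. In experiment 1, 3 libraries of cells given the siRNA siMESH1-CDS were set against 3 libraries of cells given the non-targeting siRNA (siNT), and in experiment 2, 3 libraries of siMESH1-7002 cells against 3 further siNT libraries. Each siRNA was used in 1 experiment, so a difference between siRNAs and a difference between experiments cannot be told apart, and all 12 libraries come from the same line.

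Kinesins are motors that use ATP to walk along microtubules or to take their ends apart. One set of them builds the mitotic spindle, moves chromosomes and divides the cell, and many of its genes are transcribed mainly in the G2 and M phases of the cell cycle. The other set carries vesicles, mitochondria and proteins along microtubules in resting and dividing cells alike.

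The sequences of both siRNAs are shown because a short match between an siRNA and the 3′ end of another transcript can lower that transcript as well. The targets are written 5′ to 3′ as DNA, with the 7 bases that pair with the seed of the guide strand in capitals.
siMESH1-CDS: gggaatcactgACATTGTg
siMESH1-7002: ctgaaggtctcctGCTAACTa
In the transcript HDDC3-201 of GENCODE v29, the first target lay in the coding sequence of exon 2 of 4, on the minus strand at chr15:90932064-90932082 (GRCh38). The second lay in the 3′ UTR, in exon 4 of 4, at chr15:90931109-90931129.

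The targeted gene was read first. HDDC3 had 438, 292 and 361 reads in the siNT libraries of experiment 1 and 5, 0 and 11 reads with siMESH1-CDS. In experiment 2 it had 442, 326 and 358 reads with siNT and 36, 35 and 52 with siMESH1-7002. Neither pair of groups overlapped.

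Reads in genes numbered 24787804 to 49134129 per library. In experiment 1 the change of a gene followed the GC content of its exons: over 10 classes of genes, the median log2 change of siMESH1-CDS against siNT went from 1.15 at 38.3% GC to -3.67 at 63.4% GC. In experiment 2 the same classes spanned 0.14 to -0.10. The spread between replicates, as the biological coefficient of variation of the edgeR fit, was 0.299 in experiment 1 and 0.0490 in experiment 2. The siMESH1-CDS libraries differed from each other by a chi-square of 65.2 to 275 per degree of freedom, against 2.24 to 15.2 in the other groups. Replicates 2 and 3 were farthest apart (275), with 82.4 between replicates 1 and 2 and 65.2 between 1 and 3. Changes are therefore given as fitted and after a correction of every library for GC content, which moved the median log2 change of all genes in experiment 1 from -0.05 to 0.16 and in experiment 2 from 0.01 to 0.07. GC-corrected changes are to be read relative to these medians. Genes called higher and lower numbered 4945 and 4981 with siMESH1-CDS as fitted and 5204 and 3526 after the correction, and 3613 and 3622 with siMESH1-7002 as fitted and 5197 and 3191 after it. Of the renal carcinoma markers PAX8, CA9, VIM, KRT8, KRT18 and NNMT, all 6 were high enough to be tested in both experiments. Of 7 markers of other cell types, PTPRC, CD3E, PECAM1, CDH5 and MYH11 were at or near 0 in every library. Only CD68 and TUBB3 were tested. As fitted, CD68 and TUBB3 had log2 changes of -3.94 and -4.35 with siMESH1-CDS and 0.41 and 0.46 with siMESH1-7002. After GC correction these were -2.35 and -0.75, the latter not called (adjusted p = 0.177, edgeR), and 0.53 and 0.59. In scaled reads per 1000000, their siNT means were 54.7 and 28.05 in experiment 1 and 105 and 86.1 in experiment 2. The renal markers ran from 30.5 (CA9) to 3511 (VIM) and from 83.5 (KRT18) to 5849 (VIM). The part of CD68 and TUBB3 in any result was not tested.

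All mitotic kinesins that could be tested fell with siMESH1-7002. These were 12 of the 14 members, each with no overlap between its 3 knockdown and 3 siNT libraries, and they kept between 13.97% and 53.8% of their siNT level. The share of all genes without overlap is not given here, so the lack of overlap is a description of these members only. Called lower means an adjusted p below 0.05 in edgeR's quasi-likelihood test over all genes, and 26.7% of 13568 genes were called lower in this comparison. With siMESH1-CDS, 10 of the same 12 fell, where 37.2% of 13395 genes were called lower, and none rose, where 36.9% were called higher. After GC correction all 12 were lower with each siRNA, beside 27.2% of all genes with siMESH1-CDS and 24.3% with siMESH1-7002. Of these 12, KIF18B lost its siMESH1-CDS call when a replicate block was added (adjusted p = 0.0549, edgeR). Fewer cells in G2 and mitosis and less of these transcripts per cell cannot be told apart in bulk RNA.

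**Figure D1:**
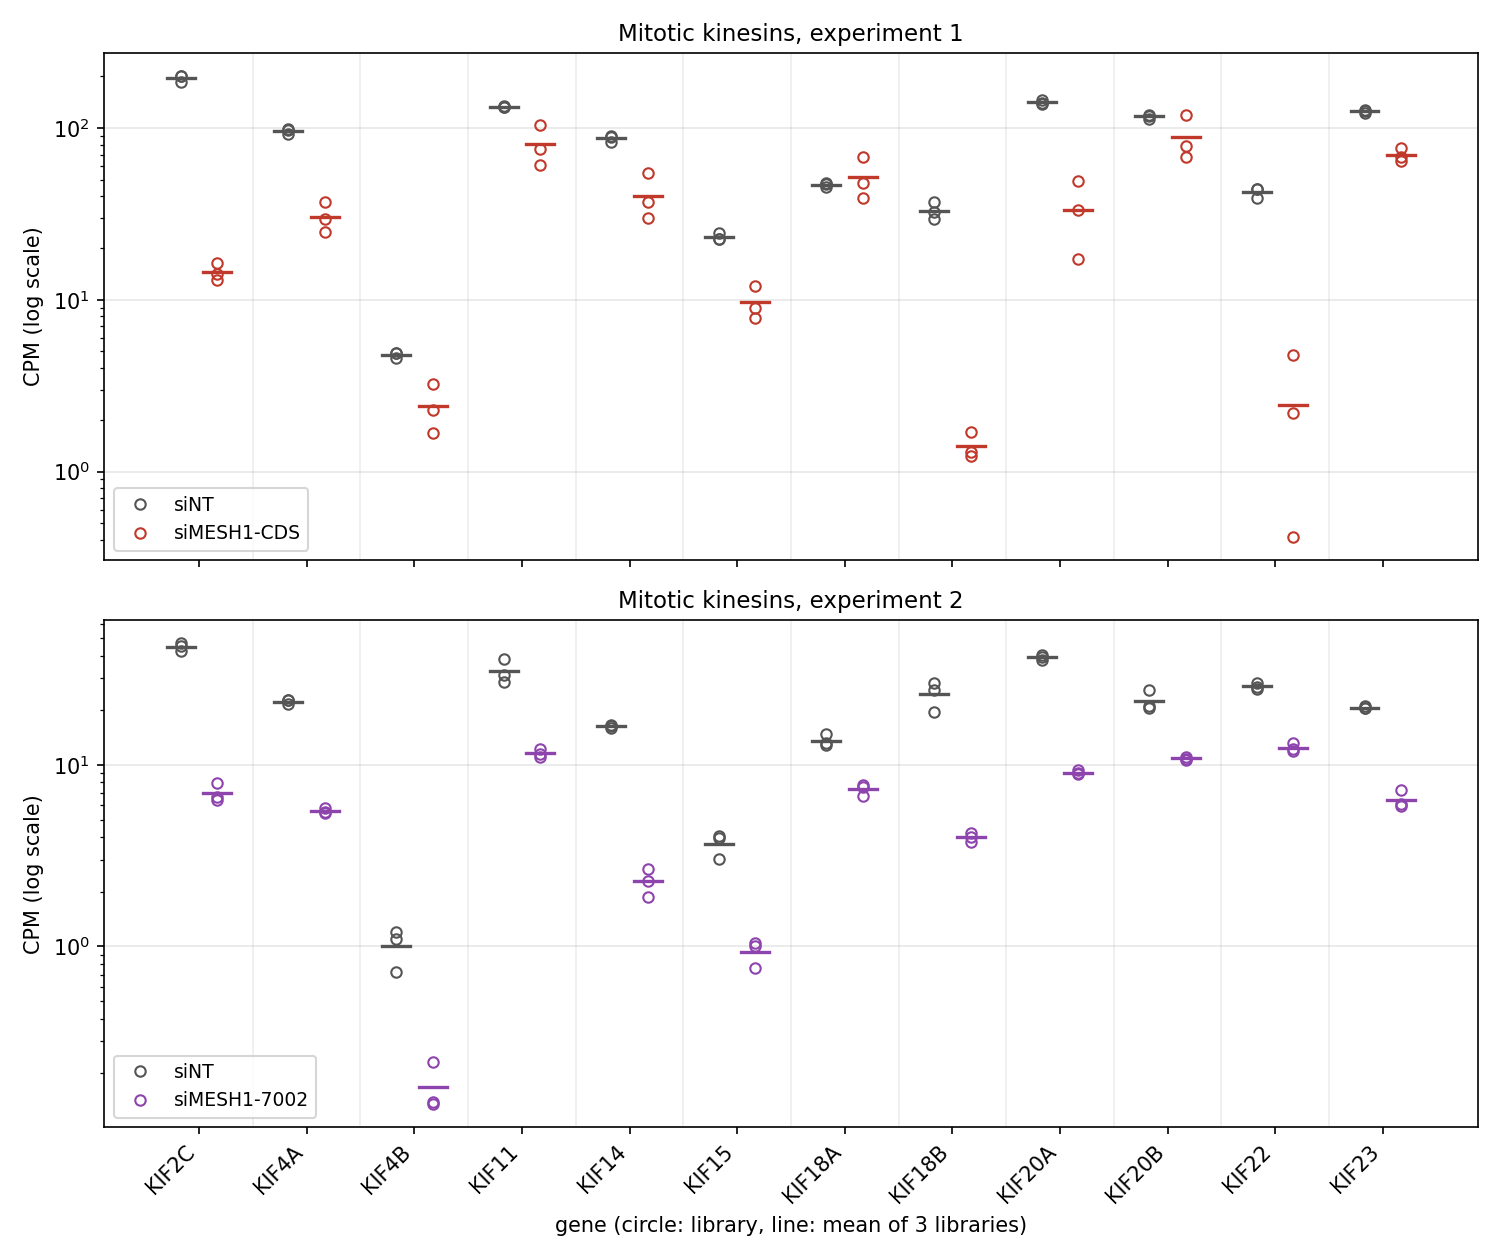
CPM (log scale) of the 12 mitotic kinesins tested, with 1 circle per library and a line at the mean of 3 libraries, for experiment 1 above and experiment 2 below. In experiment 2 every siMESH1-7002 library lies below every siNT library for all 12 genes, and in experiment 1 the groups overlap for KIF18A and KIF20B.

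Levels are given as CPM, reads of a gene per 1000000 of the library size after the TMM scaling of the edgeR fit. Motors that set up the spindle came first. KIF11 (Eg5) is the tetrameric motor that pushes the spindle poles apart. It had 31.1, 28.7 and 38.2 CPM in the siNT libraries of experiment 2 and 11.1, 11.6 and 12.3 CPM with siMESH1-7002, a log2 change of -1.49 (SE 0.10, adjusted p = 1.27e-09, edgeR), or -1.53 after GC correction. In experiment 1 it had 135, 132 and 132 CPM with siNT and 75.9, 104 and 61.3 CPM with siMESH1-CDS. Every knockdown library was below every siNT library, with replicate 2 nearest to them. The log2 change there was -0.72 (SE 0.20, adjusted p = 0.0169, edgeR), and it was -1.61 (SE 0.06) after GC correction. Without GC correction the call was lost when siNT replicate 1 (adjusted p = 0.0515) or siMESH1-CDS replicate 1 (adjusted p = 0.0647) was left out.

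KIF15, a motor that can hold spindle poles apart beside KIF11, was less abundant. Its 3 siNT libraries of experiment 2 had 3.03, 4.06 and 3.94 CPM and its siMESH1-7002 libraries 1.01, 1.05 and 0.759 CPM, a log2 change of -1.96 (SE 0.19). In experiment 1, 22.5, 24.3 and 22.6 CPM with siNT stood against 9.01, 12.1 and 7.85 CPM with siMESH1-CDS, a log2 change of -1.26 (SE 0.20). KIF15 thus fell with each siRNA and its groups did not overlap in either experiment. The GC-corrected changes were -2.08 with siMESH1-CDS and -1.99 with siMESH1-7002.

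Motors that act on chromosomes and on microtubule ends changed unequally in experiment 1, where all but KIF18A were called lower as fitted. KIF2C (MCAK) takes microtubule ends apart at the centromere and helps to correct faulty attachments. Its siNT libraries had 200, 184 and 201 CPM in experiment 1, and the siMESH1-CDS libraries had 16.3, 13.1 and 14.04 CPM, which left 7.42% of the siNT mean (log2 change -3.75, SE 0.12, adjusted p = 0.000165, edgeR). In experiment 2 the values were 45.1, 46.7 and 42.5 CPM with siNT and 6.62, 6.38 and 7.96 CPM with siMESH1-7002 (log2 change -2.68, SE 0.08). With GC correction, KIF2C had the lowest change of the mitotic kinesins with siMESH1-CDS (-3.49), and the difference between the siRNAs was called both without correction (-1.22 on the log2 scale, adjusted p = 7.64e-05, edgeR) and with it (-0.92, adjusted p = 0.000341).

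KIF22 (Kid) binds chromosome arms and pushes them toward the spindle equator. With siNT it had 44.1, 39.1 and 44.3 CPM in experiment 1, and with siMESH1-CDS 2.18, 0.416 and 4.75 CPM, so that the knockdown libraries were far apart among themselves while all lay below every siNT library. In experiment 2 it had 26.9, 28.3 and 26.1 CPM with siNT and 13.1, 12.3 and 11.9 CPM with siMESH1-7002. The log2 changes were -4.12 (SE 0.81) and -1.12 (SE 0.07), and -2.10 and -0.99 after GC correction. The lower value with siMESH1-CDS was a called difference in both fits (adjusted p = 0.00309, and 0.0107 with GC correction, edgeR). As fitted, the SE of that difference (0.73) was below the SE of the siMESH1-CDS change alone. In a single model of all 4 groups the siMESH1-7002 change of KIF22 missed the threshold (adjusted p = 0.159).

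KIF18B tracks the plus ends of astral microtubules. It went from 37.1, 29.3 and 32.6 CPM with siNT to 1.23, 1.30 and 1.70 CPM with siMESH1-CDS, and from 28.2, 25.9 and 19.6 to 4.02, 3.78 and 4.22 CPM with siMESH1-7002. Its exons have 60.4% GC, the highest of the mitotic kinesins tested, and its log2 change with siMESH1-CDS was -4.54 (SE 0.22) as fitted and -1.27 (SE 0.45, adjusted p = 0.0454, edgeR) after GC correction. With siMESH1-7002 the changes were -2.62 and -2.48. KIF18B was therefore lower with siMESH1-CDS than with siMESH1-7002 as fitted (difference -2.08) and higher after GC correction (difference 1.08, adjusted p = 0.0415). With a replicate block added to the GC correction, neither that difference (adjusted p = 0.0821, edgeR) nor the siMESH1-CDS change (adjusted p = 0.0549) was called. The GC-corrected difference also missed the threshold without siMESH1-CDS replicate 2 (adjusted p = 0.0519).

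KIF18A, which dampens chromosome movements so that chromosomes align, is at the other end of the scale with 37.0% GC. Its siNT libraries of experiment 1 had 45.5, 47.3 and 47.6 CPM, and the siMESH1-CDS libraries had 47.7, 67.7 and 39.4 CPM, so the groups overlapped and 2 of 3 knockdown libraries were above siNT. The log2 change of 0.14 (SE 0.21) was not called (adjusted p = 0.559, edgeR). After GC correction it was -0.77 (SE 0.07, adjusted p = 0.000208), close to the change with siMESH1-7002, where 12.9, 13.2 and 14.8 CPM stood against 7.73, 7.53 and 6.70 CPM (log2 change -0.89, SE 0.09). The GC-corrected difference between the siRNAs was 0.07 (SE 0.09, adjusted p = 0.561).

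KIF4A is a chromosome-bound motor that also works with PRC1 in the central spindle. In experiment 1 it had 97.3, 92.7 and 98.2 CPM with siNT and 29.4, 24.7 and 36.9 CPM with siMESH1-CDS, and in experiment 2 it had 21.5, 22.7 and 22.7 CPM with siNT and 5.48, 5.41 and 5.78 CPM with siMESH1-7002. These gave log2 changes of -1.66 (SE 0.16) and -2.004 (SE 0.08), and -1.88 and -1.96 after GC correction. Reads of KIF4B, a near-identical intronless copy, cannot be safely split from those of KIF4A, and its count was 4 to 35 reads per library in experiment 2. KIF4B had 4.60, 4.89 and 4.88 CPM with siNT and 1.68, 3.25 and 2.27 CPM with siMESH1-CDS, and 1.10, 0.723 and 1.21 against 0.139, 0.135 and 0.231 CPM in experiment 2. Its groups did not overlap in either experiment. KIF4B had log2 changes of -0.99 with siMESH1-CDS and -2.57 with siMESH1-7002 (-1.36 and -2.54 after GC correction), and the uncorrected change with siMESH1-CDS lost its call when any of the 3 siNT libraries was left out (adjusted p from 0.0554 to 0.0623).

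Of the 4 motors of cytokinesis, KIF14, KIF20A and KIF23 fell in both experiments. KIF20B was not called with siMESH1-CDS as fitted, but it was after GC correction and in some other fits. KIF20A (MKLP2) brings the chromosomal passenger complex to the central spindle. In experiment 2 its siNT libraries had 39.3, 40.1 and 38.0 CPM and its siMESH1-7002 libraries 8.98, 8.88 and 9.34 CPM, a log2 change of -2.11 (SE 0.07, adjusted p = 3.58e-13, edgeR). In experiment 1, 139, 146 and 139 CPM with siNT compared with 33.3, 17.3 and 49.2 CPM with siMESH1-CDS, a log2 change of -2.09 (SE 0.37, adjusted p = 0.00328). Correction for GC content left -1.98 and -2.03, and the difference between the siRNAs was 0.02 (SE 0.30) on that scale.

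KIF23 (MKLP1) forms centralspindlin with RACGAP1 and bundles the microtubules between the separating chromosomes. With siNT it had 126, 127 and 122 CPM in experiment 1, against 67.3, 76.0 and 64.6 CPM with siMESH1-CDS (log2 change -0.85, SE 0.10). In experiment 2, 21.0, 20.5 and 20.5 CPM stood against 7.28, 6.08 and 5.94 CPM (log2 change -1.69, SE 0.09). The groups were apart in both experiments. The smaller change with siMESH1-CDS was a called difference as fitted (0.68, adjusted p = 0.00104, edgeR) but not after GC correction (0.06, adjusted p = 0.682).

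KIF14 recruits citron kinase to the midbody. It had 15.9, 16.4 and 16.6 CPM with siNT in experiment 2 and 1.87, 2.30 and 2.67 CPM with siMESH1-7002, a log2 change of -2.83 (SE 0.11), the lowest of all members in that comparison. In experiment 1, 89.4, 88.5 and 83.3 CPM with siNT stood against 36.8, 54.4 and 29.9 CPM with siMESH1-CDS (log2 change -1.11, SE 0.23, and -2.02 after GC correction). KIF14 was lowered more by siMESH1-7002 in both fits (difference 1.58, adjusted p = 0.000654, and 0.77, adjusted p = 0.000739, with GC correction, edgeR).

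KIF20B, which acts in the late steps of abscission, has the least GC of all members, 34.1%. Its siNT libraries of experiment 1 had 118, 120 and 113 CPM, and its siMESH1-CDS libraries had 78.1, 120 and 67.8 CPM. Replicate 2 lay at the siNT level and the other 2 lay below it, and the log2 change of -0.40 (SE 0.22) was not called (adjusted p = 0.140, edgeR). Leaving out replicate 2 gave -0.67 (adjusted p = 0.00101). KIF20B was also called lower with library size as the scaling (adjusted p = 0.0148, edgeR) and with at least 10 counts in every library (adjusted p = 0.0361). So it was in a single model of 4 groups (adjusted p = 0.0141) and with lane as a covariate (adjusted p = 0.00887). GC correction of all libraries gave -1.35 (SE 0.06, adjusted p = 2.04e-05). In experiment 2 it had 21.1, 20.7 and 26.0 CPM with siNT and 10.6, 10.8 and 11.1 CPM with siMESH1-7002 (log2 change -1.06, SE 0.09, and -1.07 after GC correction).

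Of the 14 mitotic kinesins, KIF2B and KIFC1 were not tested. KIF2B, a depolymerase related to KIF2C, had 0 reads in all 12 libraries. KIFC1 (HSET), a motor that walks to the minus end and gathers spindle poles, had 0 to 3 reads per library in experiment 1 and 0 to 4 in experiment 2. Its genomic neighbourhood was also short of reads: of 34 protein-coding genes in the 1 Mb below KIFC1 on chromosome 6, 24 (70.6%) had at most 4 reads in every library, compared with 3 of 15 (20%) in the 1 Mb above and 26.3% of 18970 protein-coding genes in all. The low count of KIFC1 is therefore not read as low expression.

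The promoters of the mitotic kinesins were inspected for a pair of sequence elements known from genes of G2 and M phase, the CHR (TTTGAA) and the CCAAT box, on either strand and in the 250 bases before to 50 bases after each RefSeq start site (GRCh38.p14, matched by symbol). TTTGAA was in at least 1 promoter of 10 of the 14 mitotic kinesin genes (KIF4A, KIF4B, KIF11, KIF14, KIF15, KIF18A, KIF18B, KIF20B, KIF23 and KIFC1). It was in 1 of 11 transport kinesin genes (KIF5B) and 0 of 9 other kinesin genes whose promoters were searched, and in 15.2% of 35116 human promoters. Promoters of the transport kinesins KIF5A, KIF13B, KIFC2 and KIFC3 were not searched, nor were those of KIF19, KIF21B, KIF26B and KIF27. CCAAT was in 11 of 14, 4 of 11 and 3 of 9 genes, and in 34.6% of all promoters. Of E2F-type words (TTTCCCGC, TTTGGCGC, TTTCGCGC or TTTGCCGC), 1 of 14 mitotic genes, 0 of 11 and 1 of 9 held any, beside 3.32% of all promoters. The windows that hold the CHR are shown for 7 of the 10 mitotic genes, leaving out KIF4B (a copy of KIF4A), KIF20B and KIFC1, on the strand of the gene, with TTTGAA or its complement in capitals.
KIF11, chr10:92593091-92593118, plus strand: tctgtctctttTTCAAAttgaggcgccg
KIF14, chr1:200620734-200620761, minus strand: cggggcgcccaTTCAAAttgcggccttc
KIF15, chr3:44761748-44761775, plus strand: caagcgccaaaTTCAAAtttgcggccat
KIF18A, chr11:28108150-28108177, minus strand: agtggcttgggTTTGAAtattgtggttg
KIF18B, chr17:44947755-44947782, minus strand: cgcccggctaaTTTGAAcgcaaggcgcc
KIF23, chr15:69414283-69414310, plus strand: tgattggcccgTTTGAAatgcgccaggc
KIF4A, chrX:70290059-70290086, plus strand: tccgggacggaTTTGAAacttggcggtt
In KIF23 the window also holds a CCAAT box, read as ATTGG on this strand, a few bases before the CHR. Neither KIF2C nor KIF20A nor KIF22 held TTTGAA in this window, and all 3 fell with each siRNA. The presence of a word in a promoter is a description and no test of it was made.

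Transport kinesins did not move together. With siMESH1-7002, 3 of 11 tested fell (KIF5B, KIF3C and KIFC2) and 2 rose (KIF3A and KIF13A), where 26.7% of all genes fell and 26.6% rose. With siMESH1-CDS, 4 of 12 fell (KIF1C, KIF3C, KIFC2 and KIFC3) and 6 rose (KIF1B, KIF3A, KIF3B, KIF5B, KIF13A and KIF16B), where 37.2% of all genes fell and 36.9% rose. After GC correction the counts were 1 lower and 8 higher with siMESH1-CDS, beside 27.2% of all genes lower and 40.2% higher. They were 4 lower and 6 higher with siMESH1-7002, beside 24.3% lower and 39.6% higher.

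KIF5B, the heavy chain of conventional kinesin in most cell types, was the kinesin with the highest siNT level per kilobase of exon in experiment 1. As fitted, it moved in opposite directions with the siRNAs. Its siNT libraries of experiment 2 had 182, 191 and 211 CPM, and its siMESH1-7002 libraries had 104, 104 and 103 CPM, a log2 change of -0.91 (SE 0.05, adjusted p = 4.07e-10, edgeR). In experiment 1, 356, 349 and 341 CPM with siNT stood against 679, 895 and 574 CPM with siMESH1-CDS, a log2 change of 1.04 (SE 0.17, adjusted p = 0.00258). The groups were apart in both experiments. After GC correction the change with siMESH1-CDS was 0.18 (SE 0.04, adjusted p = 0.0139), near the median of 0.16 for all genes. It was not called when a replicate block was added (adjusted p = 0.0549, edgeR), so no rise beyond that median is read. The GC-corrected fall with siMESH1-7002 was -0.95 (SE 0.03). The difference between the siRNAs was 1.80 as fitted (adjusted p = 2.40e-05) and 1.05 after GC correction (adjusted p = 1.25e-07).

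The 3′ UTRs of the kinesins were searched for the 7 seed-matched bases of each siRNA shown above, taking 1 GENCODE v29 transcript per gene. KIF1A, KIF3A, KIF13A and KIF26A had no 3′ UTR in the transcript used, and that of KIF21A had 3 bases, too few to hold a site. The siMESH1-7002 bases were in KIF5B (1 site) and KIF6 (2 sites), and in 5.22% of 12360 genes with a 3′ UTR that passed a floor on reads summed over all libraries. Those of siMESH1-CDS were in KIF2C, KIF14 and KIF5C (1 site each), and in 14.4% of the genes. Sites are shown with the matched bases in capitals.
KIF5B, siMESH1-7002 match: ctgtgccaaGCTAACTgtaccttat
KIF2C, siMESH1-CDS match: tgtgtttatACATTGTatgtaacaa
KIF14, siMESH1-CDS match: atactaaacACATTGTgatactgta
KIF5B fell with the siRNA whose seed bases its 3′ UTR holds and not with the other. KIF2C fell further with siMESH1-CDS, KIF14 further with siMESH1-7002, and KIF6, with 1.51, 1.25 and 1.95 CPM with siNT and 2.36, 1.66 and 1.68 CPM with siMESH1-7002, was not called in experiment 2 (log2 change 0.26, SE 0.20). Whether any of these sites was bound was not tested.

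Kinesin-2 motors carry cargo into cilia and along the cytoplasm. KIF3A had 20.1, 23.2 and 21.3 CPM with siNT in experiment 2 and 32.1, 34.9 and 34.1 CPM with siMESH1-7002, a log2 change of 0.65 (SE 0.07, adjusted p = 6.49e-07, edgeR). In experiment 1 it had 21.1, 24.4 and 23.4 CPM with siNT and 53.3, 70.4 and 44.9 CPM with siMESH1-CDS (log2 change 1.29, SE 0.19, and 0.42, SE 0.08, after GC correction). KIF3A rose with each siRNA in both fits and its groups never overlapped.

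KIF3B, the usual partner of KIF3A, had 182, 184 and 183 CPM with siNT and 324, 266 and 348 CPM with siMESH1-CDS (log2 change 0.77, SE 0.12, and 0.68 after GC correction). In experiment 2 it had 224, 232 and 237 CPM with siNT and 249, 244 and 231 CPM with siMESH1-7002, and these overlapped (log2 change 0.06, SE 0.05, adjusted p = 0.253). After GC correction KIF3B was called higher there (0.12, adjusted p = 0.0034), near the median of 0.07 for all genes. KIF3C, another partner, went from 55.8, 55.5 and 54.4 to 25.8, 21.6 and 31.4 CPM with siMESH1-CDS and from 120, 114 and 111 to 97.1, 96.5 and 92.3 CPM with siMESH1-7002. Its fall with siMESH1-CDS (log2 change -1.07) turned into a rise of 1.13 after GC correction (adjusted p = 0.0165, edgeR), so no direction is given for it in experiment 1. With siMESH1-7002 KIF3C fell by 0.28 as fitted and by 0.15 after GC correction, on the log2 scale.

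Kinesin-3 motors move vesicles and endosomes. KIF13A, which carries recycling endosomes, had 89.0, 89.4 and 92.7 CPM with siNT in experiment 2 and 118, 114 and 116 CPM with siMESH1-7002 (log2 change 0.36, SE 0.05). In experiment 1, 90.0, 86.8 and 87.7 CPM stood against 134, 128 and 150 CPM (log2 change 0.64, SE 0.09). It rose with each siRNA, with GC-corrected changes of 0.44 and 0.40 and a difference between them of -0.02 (SE 0.08).

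KIF1B, KIF1C and KIF16B belong to the same family. KIF1B had 79.1, 85.4 and 76.8 CPM with siNT and 115, 122 and 117 CPM with siMESH1-CDS, and 62.1, 60.9 and 71.6 against 58.6, 58.3 and 58.7 CPM in experiment 2. The first change was a rise of 0.55 (SE 0.09) and the second, -0.15 (SE 0.06), was not called (adjusted p = 0.0527, edgeR). KIF1B was called lower with siMESH1-7002 after GC correction (-0.11, adjusted p = 0.0294), with library size as the scaling (adjusted p = 0.0414), with at least 10 counts in every library (adjusted p = 0.0467) and without siNT replicate 1 (adjusted p = 0.0297) or 2 (adjusted p = 0.0392). The rise with siMESH1-CDS was 0.26 after GC correction. KIF16B, an early endosome motor, had 18.6, 20.01 and 19.96 CPM with siNT and 41.7, 45.3 and 40.8 CPM with siMESH1-CDS (log2 change 1.13, SE 0.11), against 22.9, 23.7 and 25.3 and then 23.6, 23.2 and 22.7 CPM in experiment 2 (log2 change -0.05, SE 0.07, and -0.01 after GC correction, neither called). Its rise in experiment 1 remained 0.78 after GC correction, and the difference between the siRNAs was called in both fits (adjusted p = 3.28e-05 and 1.29e-05).

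KIF1C had 177, 153 and 169 CPM with siNT and 25.7, 11.2 and 66.3 CPM with siMESH1-CDS, a log2 change of -2.28 (SE 0.62) that was lost without siMESH1-CDS replicate 1 (adjusted p = 0.0631, edgeR) and was -0.69 after GC correction. In experiment 2 it had 360, 363 and 336 CPM with siNT and 376, 385 and 362 CPM with siMESH1-7002 (log2 change 0.08, SE 0.04, not called), and it was called higher there after GC correction (0.20, adjusted p = 5.82e-06). KIF13B had log2 changes of 0.07 with each siRNA, neither of them called. Its GC-corrected changes, 0.69 and 0.17, were both called higher.

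Both minus-end motors of this class, KIFC2 and KIFC3, have GC-rich exons of 68.0% and 62.2%. KIFC3, which acts at cell junctions and the Golgi, had 27.7, 24.7 and 25.7 CPM with siNT and 1.20, 0.910 and 3.16 CPM with siMESH1-CDS, and 204, 196 and 174 against 201, 206 and 196 CPM in experiment 2. KIFC2 had 18.4, 15.98 and 17.1 CPM with siNT and 1.23, 0.286 and 2.42 CPM with siMESH1-CDS, and 106, 92.1 and 74.8 against 65.9, 76.8 and 75.1 CPM in experiment 2, where the groups overlapped. In experiment 1 the log2 changes were -3.89 (SE 0.52) for KIFC3 and -3.71 (SE 0.71) for KIFC2, and neither was called after GC correction (-0.51, adjusted p = 0.0566, and 0.60, adjusted p = 0.103, edgeR). In experiment 2 KIFC3 had 0.07 (SE 0.05, not called), which became 0.21 (adjusted p = 3.12e-06, called higher) after GC correction, and KIFC2 had -0.32 (SE 0.09, adjusted p = 0.00696), or -0.15 after GC correction, a call that DESeq2 did not make (adjusted p = 0.0684).

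**Figure D2:**
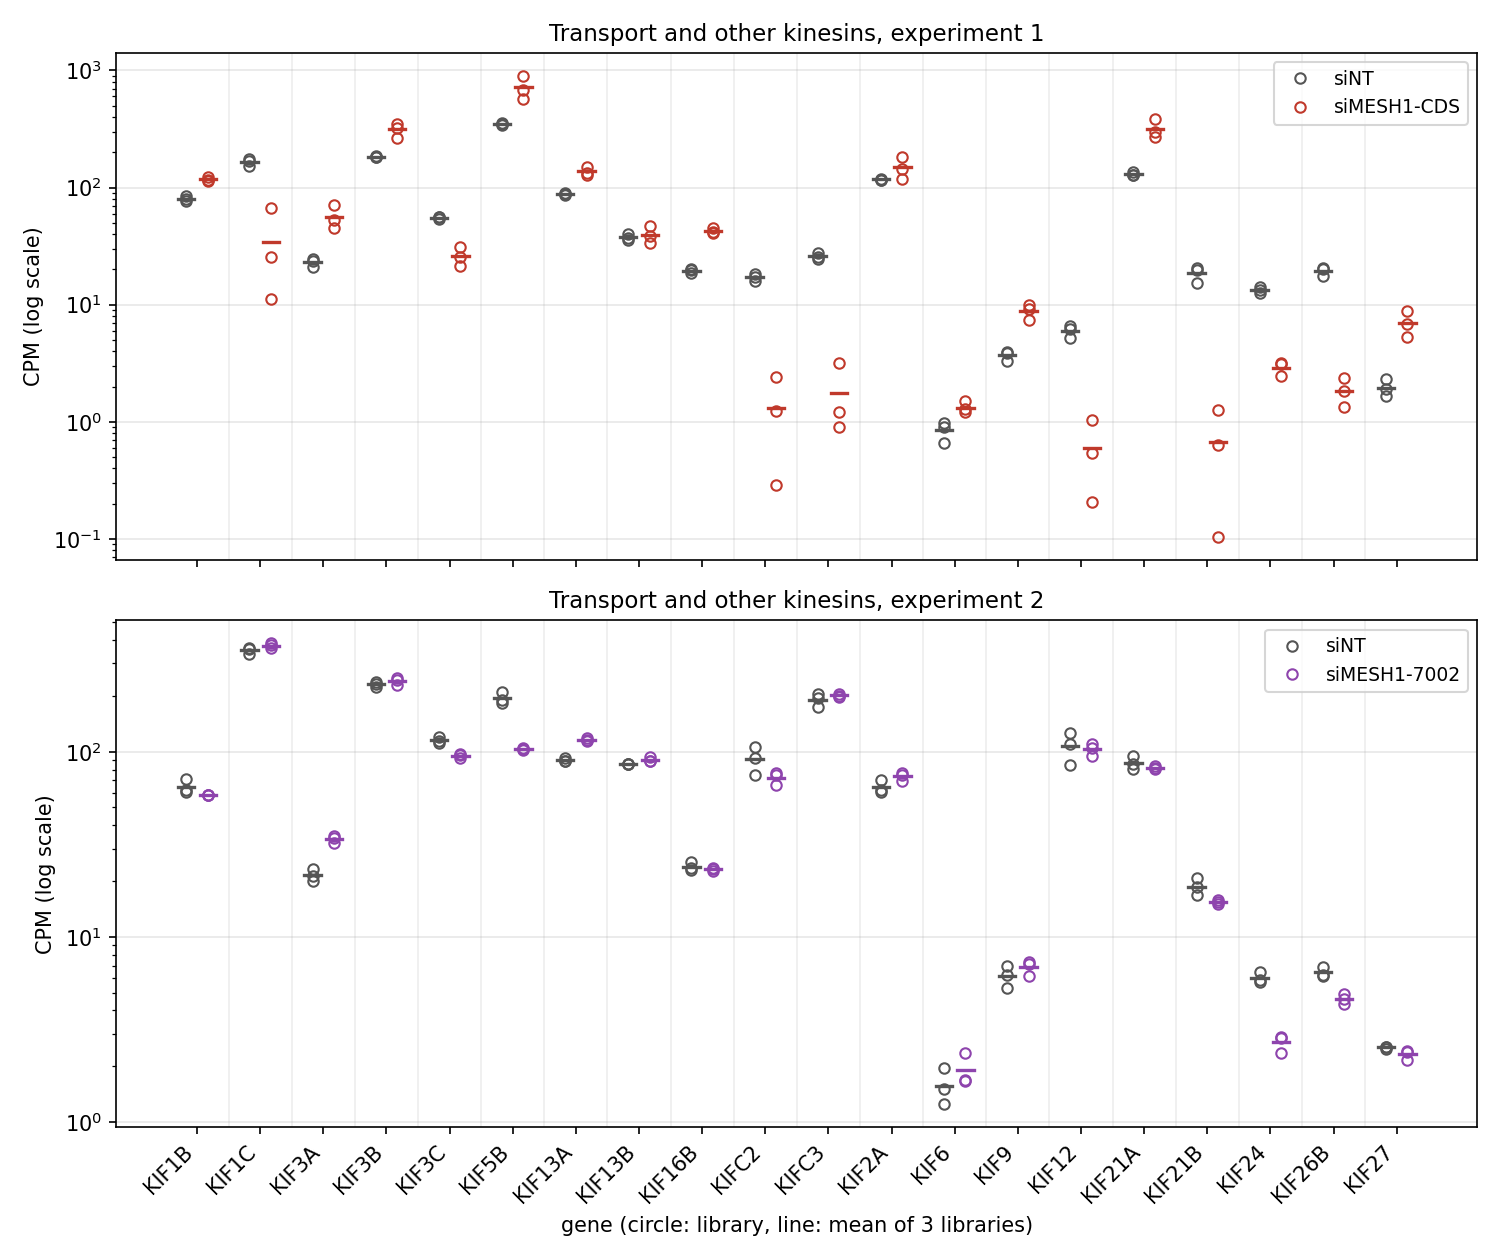
CPM (log scale) of the 11 transport and 9 other kinesins tested in both experiments, with 1 circle per library and a line at the mean of 3 libraries. KIF5B lies above siNT with siMESH1-CDS and below it with siMESH1-7002, while KIF3A and KIF13A lie above siNT with each siRNA.

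Transport kinesins that were not tested were near 0. KIF5A, KIF1A and KIF17, motors known from neurons, had 0 to 4, 0 to 15 and 0 to 4 reads per library. KIF5C, another neuronal heavy chain, had 1 to 15 reads in experiment 1 (log2 change -0.74, SE 0.76, not called) and 7 to 11 in experiment 2, where it was not tested.

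Among the other kinesins, 3 of 9 tested fell with siMESH1-7002 (KIF21B, KIF24 and KIF26B), 1 rose (KIF2A), and with siMESH1-CDS 4 fell (the same 3 and KIF12) and 4 rose (KIF6, KIF9, KIF21A and KIF27). Over all genes 26.7% fell and 26.6% rose with siMESH1-7002, and 37.2% fell and 36.9% rose with siMESH1-CDS, shares near these counts except for the 1 of 9 that rose with siMESH1-7002. GC correction gave 4 falls and 3 rises for siMESH1-CDS, beside 27.2% of all genes lower and 40.2% higher. It gave 4 falls and 2 rises for siMESH1-7002, beside 24.3% lower and 39.6% higher. KIF24 restrains the outgrowth of cilia at the mother centriole. It had 14.03, 13.3 and 12.6 CPM with siNT and 3.10, 2.44 and 3.16 CPM with siMESH1-CDS, and 5.83, 5.67 and 6.49 against 2.88, 2.37 and 2.84 CPM in experiment 2. The log2 changes were -2.19 (SE 0.19) and -1.15 (SE 0.12), and -1.96 and -1.07 after GC correction, so KIF24 fell in both experiments and both fits. In its promoter CCAAT was present and TTTGAA was not.

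KIF26B, an atypical kinesin, had 20.01, 17.5 and 20.4 CPM with siNT and 1.83, 1.33 and 2.36 CPM with siMESH1-CDS, and 6.15, 6.91 and 6.24 against 4.61, 4.36 and 4.88 CPM in experiment 2. KIF21B, which limits microtubule growth, had 20.6, 15.2 and 19.96 CPM with siNT and 0.632, 0.104 and 1.27 CPM with siMESH1-CDS, and 20.7, 18.6 and 16.8 against 15.4, 15.8 and 14.99 CPM in experiment 2. The log2 changes were -3.39 and -0.47 for KIF26B and -4.80 and -0.28 for KIF21B. GC correction left -1.33 and -0.35 for KIF26B and -2.24 and -0.15 for KIF21B, all called, but the siMESH1-7002 call of KIF21B was lost as fitted without siNT replicate 1 (log2 change -0.20, adjusted p = 0.0526).

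KIF27 and KIF21A rose with siMESH1-CDS. KIF27, a relative of the cilium kinesin KIF7, had 1.65, 2.30 and 1.89 CPM with siNT and 6.89, 8.82 and 5.32 CPM with siMESH1-CDS (log2 change 1.85, and 1.01 after GC correction), and 2.55, 2.49 and 2.55 against 2.39, 2.16 and 2.41 CPM in experiment 2 (not called). KIF21A, a relative of KIF21B, had 128, 135 and 128 CPM with siNT and 299, 382 and 268 CPM with siMESH1-CDS (log2 change 1.28, and 0.46 after GC correction), and 80.7, 85.6 and 94.8 against 81.2, 83.8 and 81.1 CPM in experiment 2 (not called as fitted, and -0.12, called lower, after GC correction). For both genes the difference between the siRNAs was called in either fit.

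KIF9, a motor of motile cilia, had 3.98, 3.85 and 3.29 CPM with siNT and 9.20, 9.86 and 7.45 CPM with siMESH1-CDS (log2 change 1.25, and 1.90 after GC correction), and 6.24, 6.95 and 5.29 against 7.18, 7.30 and 6.17 CPM in experiment 2 (log2 change 0.16, not called, and 0.26, called higher with adjusted p = 0.0385, after GC correction). KIF12, a kinesin known from kidney, had 6.20, 6.55 and 5.199 CPM with siNT and 0.538, 0.208 and 1.04 CPM with siMESH1-CDS, against 126, 110 and 84.7 and then 95.1, 105 and 110 CPM in experiment 2. Its log2 change of -3.33 with siMESH1-CDS was 0.16 (not called) after GC correction, and its siNT level differed between the experiments more than that of any other member tested in both.

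KIF2A, a microtubule depolymerase used in neurons and at spindle poles, had 118, 117 and 116 CPM with siNT and 143, 183 and 119 CPM with siMESH1-CDS, with a log2 change of 0.34 (SE 0.16) that was not called and was -0.38 after GC correction (adjusted p = 0.00284, edgeR). In experiment 2 it had 60.9, 62.4 and 70.3 CPM with siNT and 76.9, 75.1 and 69.7 CPM with siMESH1-7002 (log2 change 0.20, adjusted p = 0.0130), a call that was lost without any of 4 of the 6 libraries. KIF6 rose with siMESH1-CDS from 0.657, 0.974 and 0.902 to 1.20, 1.27 and 1.496 CPM (log2 change 0.65, adjusted p = 0.0485, edgeR, and 0.56, not called, after GC correction), and this call was lost when any 1 library of the experiment was left out. KIF7, KIF19, KIF25 and KIF26A had at most 2 reads in any library and were not tested.

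Set side by side, the median of the mitotic kinesins was below that of the transport kinesins with each siRNA. Single members of the classes overlapped as fitted and after GC correction. With siMESH1-7002 the transport kinesin KIF5B (-0.91) lay just below the mitotic kinesin KIF18A (-0.89), and so it did after GC correction (-0.95 and -0.93). With siMESH1-7002 the median log2 change was -1.98 for the 12 mitotic and 0.06 for the 11 transport kinesins, a difference of -2.05. Taken library by library against the siNT mean, the difference was -2.01, -1.97 and -1.997 (SD 0.02, n = 3). An SD of this kind holds no spread among the siNT libraries. Leaving out siNT replicate 1, 2 or 3 gave fitted differences of -2.12, -2.01 and -1.97. With siMESH1-CDS the medians were -1.18 and 0.31, a difference of -1.50, and the single libraries gave -1.71, -1.01 and -1.96 (SD 0.49, n = 3), with replicate 2 nearest to 0. After GC correction the differences were -2.18 with siMESH1-CDS and -2.09 with siMESH1-7002. Medians over all genes tested were -0.05 and 0.01. Members of a class are not replicates, so no test was made of these differences.

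**Figure D3:**
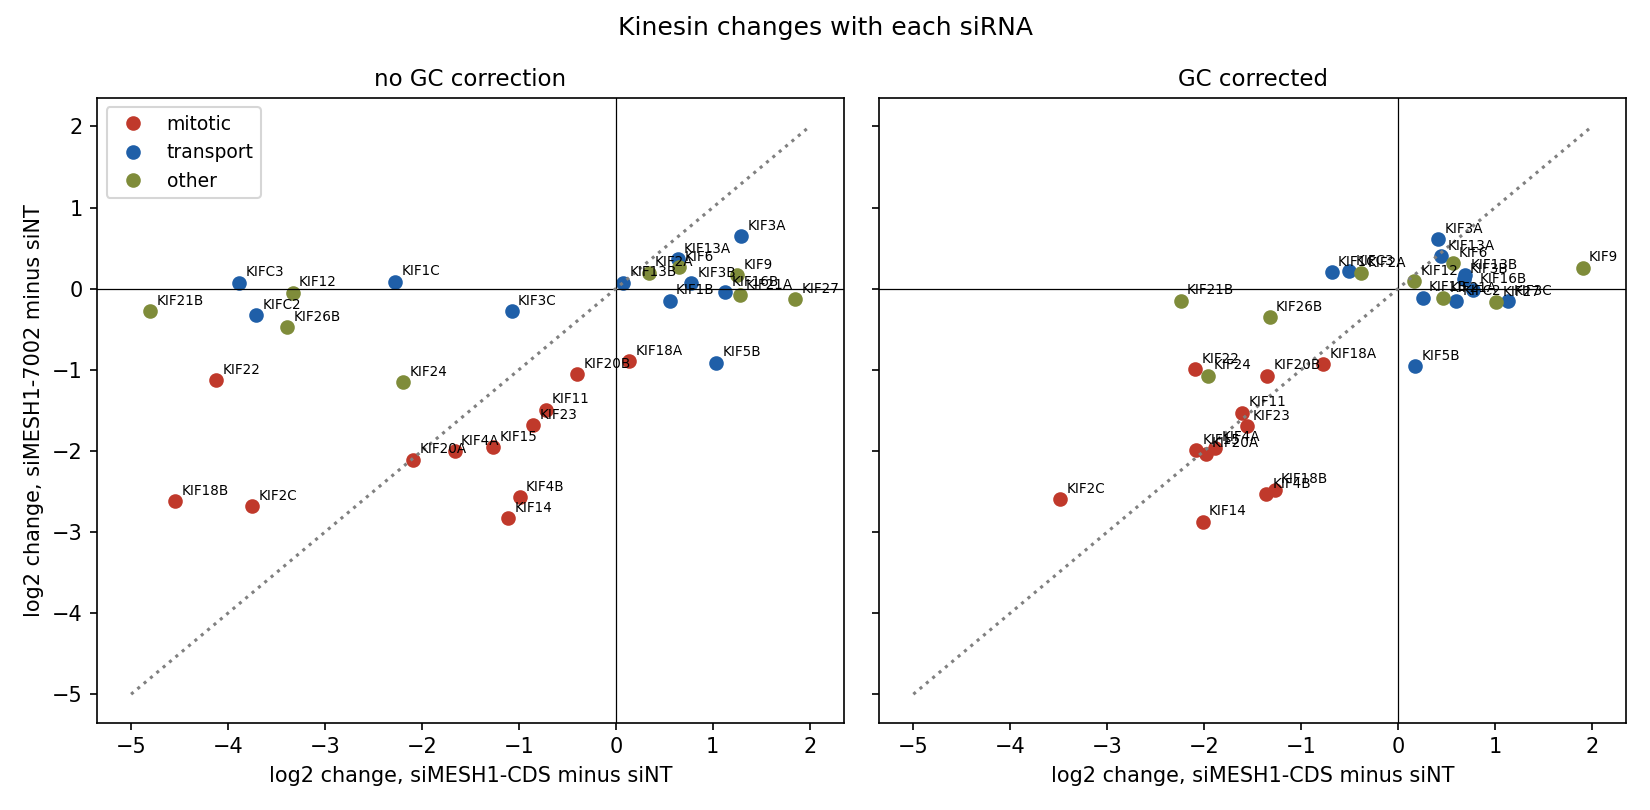
Log2 change of each of the 32 kinesins tested in both experiments with siMESH1-CDS (horizontal) and with siMESH1-7002 (vertical), as fitted on the left and GC corrected on the right, with a dotted line where both are equal. Mitotic kinesins (red) are below 0 with siMESH1-7002 in both panels, and on the right all 12 are also below 0 with siMESH1-CDS, whereas the transport kinesins (blue) lie on both sides of 0, with KIF5B lowest of them on the vertical axis.

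**Figure D4:**
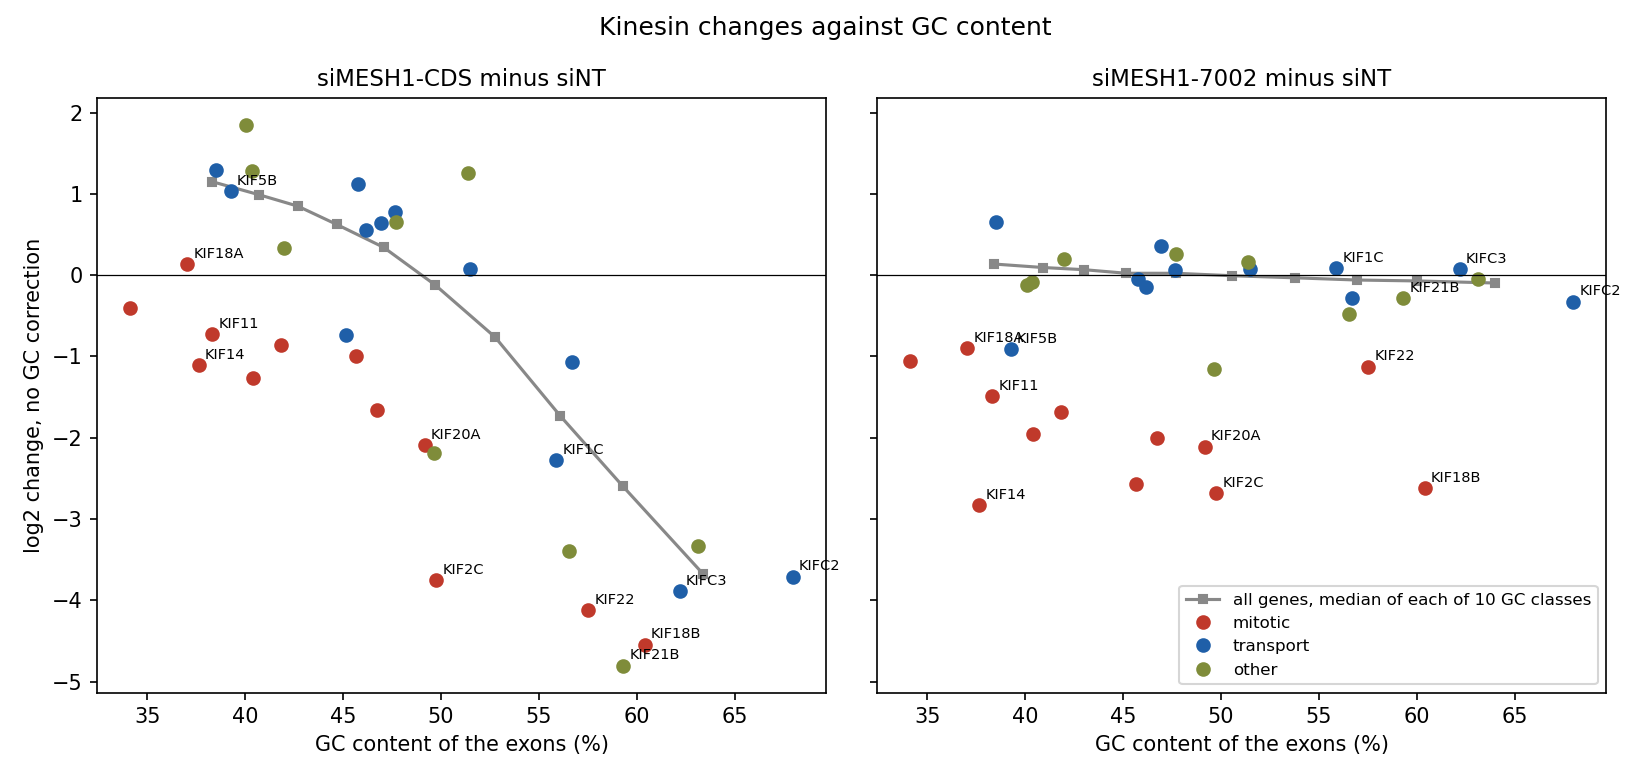
Log2 change without GC correction against the GC content of the exons, with the median change of all genes in 10 GC classes in grey. In experiment 1 (left) the grey line goes from 1.15 to -3.67 and the GC-poor KIF5B lies above 0 and the GC-rich KIFC3 far below it, and in experiment 2 (right) the grey line stays between 0.14 and -0.10.

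The mitotic kinesins tested run from 34.1% to 60.4% GC and the transport kinesins from 38.5% to 68.0%. As fitted with siMESH1-CDS, mitotic changes ran from -4.54 to 0.14 and transport changes from -3.89 to 1.29, so the classes overlapped. After GC correction they ran from -3.49 to -0.77 and from -1.15 to 1.13, where the lowest transport value is that of KIF5C with 1 to 15 reads.

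The change with siMESH1-CDS minus the change with siMESH1-7002 was called for 23 of 33 kinesins with a fit, beside 69.7% of 14154 genes, and for 20 of 33 after GC correction, beside 61.1% of genes. By class these were 8 of 12 mitotic, 8 of 12 transport and 7 of 9 other kinesins as fitted. In 15 of the 23 the difference was called in both fits with the same sign, of which 3 were mitotic (KIF2C, KIF14 and KIF22). This test shared 1 dispersion estimate per gene among the 4 groups. The spread between replicates was 0.299 in experiment 1 and 0.0490 in experiment 2. P-values of these differences can therefore be too small for members that varied most in experiment 1.

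Levels in the siNT libraries also differed between the experiments. For these levels each library was scaled to its own reads in genes, without TMM. Per kilobase of exon, the 5 most abundant kinesins of experiment 1 were KIF5B (65.1 ± 1.38), KIF2C (58.6 ± 2.21), KIF20A (39.2 ± 1.62), KIF3B (32.9 ± 0.647) and KIF11 (30.0 ± 0.249, SD, n = 3). The same measure put KIF1C (41.3 ± 1.72), KIF3B (38.0 ± 1.11), KIF12 (35.3 ± 6.79), KIF5B (33.3 ± 2.59) and KIFC2 (20.5 ± 3.46) at the head of experiment 2. In experiment 2 the range of KIF12 (28.04 to 41.5) overlapped those of KIF1C, KIF3B and KIF5B, and the range of KIFC2 (16.9 to 23.8) overlapped those of KIFC3 and KIF3C, the next below it. All 12 mitotic kinesins were higher with siNT in experiment 1 than in experiment 2 without overlap, with a median ratio of 4.73 and a range of 1.46 (KIF18B) to 6.89 (KIF15). For the 11 transport kinesins the median ratio was 0.865, 3 were higher and 7 lower without overlap. The share of all genes that differed between the siNT groups without overlap is not given here. Depth, lane and base composition differ between the experiments together with these levels, and their part in them was not tested.

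Partners of the motors were counted from lists. Of 12 partners of mitotic kinesins, 11 fell with siMESH1-7002 and 1 (NUMA1, a spindle pole protein) rose, and with siMESH1-CDS 8 fell as fitted and 11 after GC correction. The shares of all genes called lower were 26.7% with siMESH1-7002, and 37.2% as fitted and 27.2% after GC correction with siMESH1-CDS. PRC1, the bundler of central spindle microtubules that binds KIF4A, had log2 changes of -1.64 with siMESH1-CDS and -1.74 with siMESH1-7002. RACGAP1, which joins KIF23 in centralspindlin, had -1.50 and -1.17. CENPE, itself a kinesin of the kinetochore whose symbol the rule did not take in, had -1.02 and -1.95, and its GC-corrected changes were -1.96 and -1.98.

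Of 16 partners of transport kinesins, 2 fell and 5 rose with siMESH1-7002, and with siMESH1-CDS 7 of 15 tested fell and 7 rose, where 26.7% and 37.2% of all genes fell and 26.6% and 36.9% rose. With GC correction siMESH1-7002 gave 2 falls and 10 rises, beside 24.3% of all genes lower and 39.6% higher. By the same fit siMESH1-CDS gave 5 falls and 6 rises, beside 27.2% lower and 40.2% higher. The kinesin light chain KLC2 fell with each siRNA (log2 changes -5.73 and -0.40, and -2.30 and -0.26 after GC correction). RHOT1, a mitochondrial adaptor, rose with each (1.68 and 0.22). TRAK2, another mitochondrial adaptor, rose with each as fitted (0.50 and 0.39), but its GC-corrected change with siMESH1-CDS was -0.18 and not called.

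Dynein and dynactin, the minus-end transport machinery, were counted for comparison. Of 22 genes with siMESH1-CDS 9 fell and 9 rose, and of 21 with siMESH1-7002 7 fell and 6 rose, close to the shares of all genes (37.2% and 36.9%, and 26.7% and 26.6%). The GC-corrected fits called 3 of them lower and 9 higher for siMESH1-CDS, beside 27.2% of all genes lower and 40.2% higher. For siMESH1-7002 there were 5 falls and 7 rises, beside 24.3% lower and 39.6% higher. NDEL1, a dynein regulator, rose with each siRNA (1.00 and 0.46) and its relative NDE1 fell as fitted (-0.78 and -0.47), but NDE1 was called higher with siMESH1-CDS after GC correction (0.46). The dynactin subunit ACTR1A fell with each as fitted (-1.90 and -0.44), and its GC-corrected change with siMESH1-CDS, -0.70, was not called (adjusted p = 0.0513, edgeR).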

How the data were processed

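RCC4 RNA-seq libraries were analysed as 2 experiments of 6 libraries, grouped by the siRNA in their labels. The deposited files hold counts, whole reads per gene symbol that the authors made with HISAT2 and HTSeq on hg19, not normalized (versions and annotation: not given in the sources used here). Rows that name no gene held 38.9% to 49.3% of each file and were left out. The authors' own DESeq2 tables (mean counts, fold changes, p-values) were not used.

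Within each experiment, the quasi-likelihood test of edgeR (version 4.0.16, R 4.3.3, with filterByExpr, TMM, glmQLFit and glmQLFTest) was run on the counts, and the difference between the siRNAs over all 12 libraries. P-values were adjusted by Benjamini-Hochberg over all genes tested, threshold 0.05. SE came from the fit and CPM are TMM-scaled, except for the siNT levels per kilobase of exon. Depth was 24787804 to 49134129 reads in genes per library, and members with few reads are the least precise. For the GC correction, a lowess smooth (span 0.3) of log2 CPM on exon GC content in each library, minus its mean over the experiment, was added to the offset. GC content came from GENCODE v29, matched by symbol (22411 of 23710). RefSeq promoters are of GRCh38.p14, a build other than the authors'. Single library class differences used log2(CPM + 0.01).

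Library scaling, DESeq2 1.42.0, filters, a fold threshold, a replicate block, lane, and leaving out each library were alternatives, and 1 more was chosen after seeing the data. Counts were simulated (13330 genes for siMESH1-CDS, 13579 for siMESH1-7002) with a coefficient of variation of 0.05 and no GC trend. With edgeR and no GC correction, all 200 genes changed 2-fold were recovered for each comparison, with 4.76% of calls false. This spread is below the one measured in experiment 1, which also has a GC trend. The simulation therefore does not measure the share of false calls in experiment 1. Members and lists were chosen with earlier results of these data known. Values per library are given for every mitotic kinesin tested and for other members called alike with both siRNAs or differing between them, and log2 changes for 3 genes of each partner list, namely the called genes that moved one way with both siRNAs and whose smaller change was largest. Replicates are labelled as biological, with no word on separate cultures, so p-values measure the spread between these samples.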

Additional observations from a re-analysis of the deposited data

Results flagged for a closer look

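The log2 change with siMESH1-CDS minus that with siMESH1-7002 passed an adjusted p of 0.05 (edgeR's quasi-likelihood test) for 23 kinesins, beside 69.7% of all genes. Each siRNA was used in its own experiment, so siRNA and experiment cannot be told apart in these differences.

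Among the mitotic kinesins the difference was -1.22 for KIF2C, 1.43 for KIF4B, 0.62 for KIF11, 1.58 for KIF14 and 0.88 for KIF18A. It was -2.08 for KIF18B, -3.15 for KIF22 and 0.68 for KIF23. After GC correction those of KIF2C, KIF14 and KIF22 were called with the same sign and that of KIF18B with the opposite sign. The KIF18B call was lost when a replicate block was added to the GC correction.

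Among the transport kinesins it was 0.55 for KIF1B, -2.51 for KIF1C, 0.56 for KIF3B, -0.95 for KIF3C and 1.80 for KIF5B. It was 1.02 for KIF16B, -3.54 for KIFC2 and -4.11 for KIFC3. After GC correction KIF3C was called with the opposite sign and KIFC2 was not called.

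Among the other kinesins it was 0.94 for KIF9, -3.44 for KIF12, 1.21 for KIF21A and -4.68 for KIF21B. It was -1.19 for KIF24, -3.07 for KIF26B and 1.82 for KIF27. Of these, KIF12 was not called after GC correction (-0.06).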

How the results depend on the processing

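The counts of mitotic kinesins called lower kept within 1.5 times of 10 with siMESH1-CDS and 12 with siMESH1-7002 under every alternative run. The cause of the changes below was not tested.

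With siMESH1-CDS the median change of the mitotic minus that of the transport kinesins was -0.96 without a filter on low counts and -2.18 with GC correction. It was -2.19 with a replicate block and GC correction, and -2.18 with GC correction and siMESH1-CDS replicate 2 left out, an alternative chosen after seeing the data. Each of these GC-corrected fits called 1 transport kinesin lower. Log2 changes that turned sign under these 3 fits, in that order, were -0.77, -0.77 and -0.83 for KIF18A, 1.13, 1.05 and 0.74 for KIF3C, 0.60, 0.55 and 0.77 for KIFC2, -0.38, -0.38 and -0.44 for KIF2A, and 0.16, 0.21 and 0.16 for KIF12.

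With siMESH1-7002 the class difference was -2.09 with GC correction, -2.10 with a replicate block and GC correction, and -1.88 from class means, and it ran from -2.12 to -1.97 over the fits that left out 1 library. A minimum fold change left 1 transport kinesin higher and 1 lower, a single model of 4 groups left 1 lower, and GC correction, with or without the replicate block, gave 6 higher. Over all genes, the fold threshold left 1449 lower and 964 higher and the single model 1444 and 1138.

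Differences between the siRNAs that turned sign, in the same order of fits, were -0.17, -0.17 and -0.21 for KIF11, 1.08, 1.09 and 0.55 for KIF18B, -0.39, -0.39 and -0.43 for KIF20B, 1.34, 1.26 and 0.93 for KIF3C, 0.51, 0.51 and 0.44 for KIF13B, and 0.061, 0.0046 and 0.26 for KIFC2. That of KIF3A was -0.29 in the last fit.

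Samples were not treated as paired by replicate number. Same-numbered libraries had correlations of -0.08, 0.30 and 0.18 in experiment 1, where differently numbered ones ran from -0.33 to 0.23. In experiment 2 they had -0.09, 0.04 and -0.09, where differently numbered ones ran from -0.09 to 0.17. These values do not settle whether the numbers pair the samples of experiment 1. With the replicate block alone, 10 mitotic kinesins were lower with siMESH1-CDS and 12 with siMESH1-7002, and the difference of KIF11 between the siRNAs missed the threshold (adjusted p = 0.0586, edgeR). Depth limits members with few reads in a group, such as KIF5C (1 to 15 reads) and, with siMESH1-CDS, KIF21B (4 to 44) and KIF12 (8 to 36), and with siMESH1-7002 KIF4B (4 to 7).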
